A study of Rattus norvegicus with 8 samples.

Results

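This account covers 10 genes of bone morphogenetic protein (BMP) and transforming growth factor-beta (TGF-beta) signalling in rat lung: the ligands Bmp2, Bmp4 and Tgfb1, the receptors Bmpr2 and Tgfbr2, the inhibitory Smads Smad6 and Smad7, and the inhibitors of DNA binding Id1, Id2 and Id3. Members were taken as every probe set, the group of short probes that reads 1 transcript on an Affymetrix array, whose gene symbol in the platform annotation is exactly one of these names. This gave 13 probe sets for 9 of the 10 genes among the 20242 rows of the deposited values. No probe set carries the symbol Tgfbr2 in the annotation used, and that gene was not analysed here. Of the 13 probe sets, 12 reached a log2 value of 5 on at least 2 of the 8 arrays and were tested with the 16896 that did so.

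Total RNA came from the dorsal-caudal part of the lungs of male Sprague-Dawley rats of 340 to 400 g. Rats were anaesthetised and ventilated at a high tidal volume of 18 mL/kg, with 40 breaths per minute and a positive end-expiratory pressure of 0 cmH2O, for up to 3 h, either prone (3 rats) or supine (3 rats), and 2 rats that were not ventilated were the controls. The titles call the samples biological replicates, and all groups share strain, sex and sampling site. The anaesthesia and surgery are described for the ventilated rats, and the labels do not say whether controls had them. A piece of lung holds many cell types, so fewer cells of a type and less RNA per cell cannot be told apart. The comparisons were ventilated against non-ventilated lung in each position, the 6 ventilated lungs together against the controls, and supine against prone. The prone and supine comparisons share the 2 control arrays, so their differences from control are not independent of each other.

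BMP and TGF-beta ligands bind pairs of type I and type II serine/threonine kinase receptors, which phosphorylate receptor-regulated Smads. BMP receptors act mainly through Smad1, Smad5 and Smad9, and TGF-beta receptors mainly through Smad2 and Smad3, each with Smad4. Smad6 and Smad7 are induced by the same signals and block them, and the Id genes are among the best known BMP targets, especially in endothelium. Loss of one copy of BMPR2 in humans is the main inherited cause of pulmonary arterial hypertension.

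In this material 0 of the 12 tested member probe sets passed an adjusted p of 0.05 in any of the 4 comparisons (limma, Benjamini-Hochberg over all 16896 probe sets). The share of all tested probe sets that passed was 0.0533% in prone against control, 0.0533% in supine against control, 0% in supine against prone and 0.142% in ventilated against control. At an unadjusted p under 0.05 the members gave 1 of 12 in prone against control (Id2), 1 in supine against control (Smad6), 0 in supine against prone and 1 in ventilated against control (Smad6). The matching shares of all probe sets were 17.7%, 15.2%, 4.09% and 19.2%, and 1 of 12 members is 8.33%. That Smad6 probe set (1375121_at) passed the filter through both controls and the third prone array, with no supine value at log2 5. With the replicate number as a block, which treats same-numbered arrays as pairs, again 0 members and 0 of all probe sets passed. Before adjustment, a p under 0.05 was reached with the block by 1 member in prone against control (Id2, 1375532_at), 2 in supine against control (Smad6, 1375121_at, and Bmpr2), 1 in supine against prone (Id2, 1375532_at) and 1 in ventilated against control (Smad6, 1375121_at). The matching shares of all probe sets were 18.5%, 16.9%, 7.43% and 19.8%. The lowest member values relative to control were those of Id2, and Bmp2 read higher than control by its brighter probe set. The plot of levels by array shows how far single arrays set the group means.

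**Figure D1:**
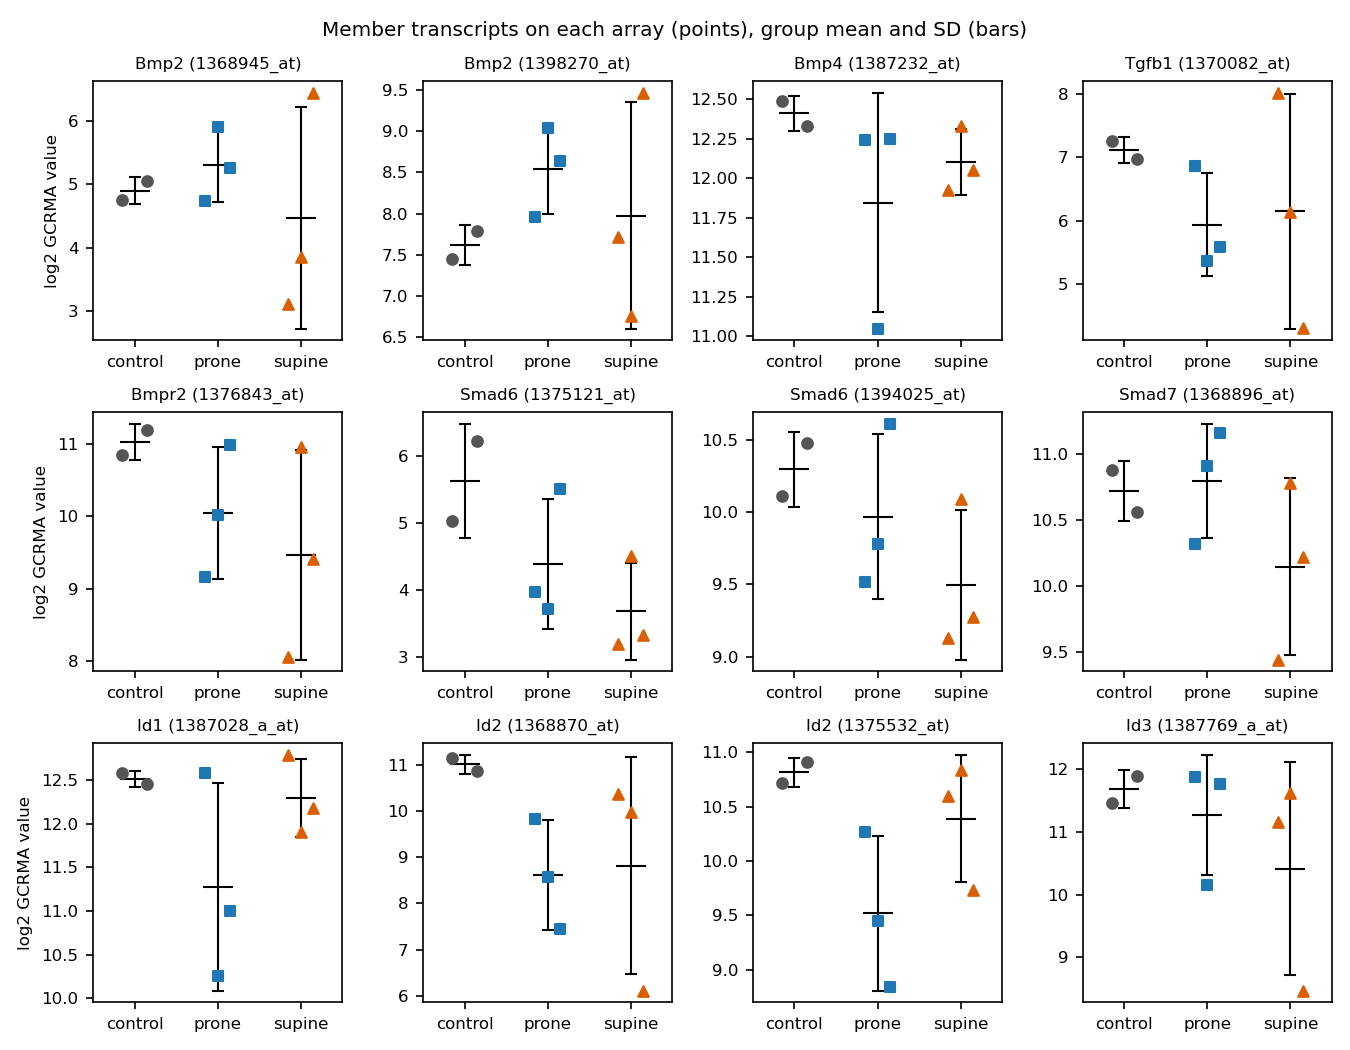
Log2 GCRMA value (y axis, own scale in each panel) of the 12 tested member probe sets in control (n = 2), prone (n = 3) and supine (n = 3) lungs; points are arrays, the horizontal line is the group mean and bars are 1 SD. Both Id2 probe sets lie below both controls on all 3 prone arrays, and the supine values of Tgfb1 spread from 4.31 to 8.01.

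Several measures of the arrays bear on the values below. The lung label was borne out by Sftpc, the surfactant protein C transcript of alveolar type 2 cells, at 15.02 to 15.51 on all 8 arrays. The third supine array stood apart in RNA quality: the 3' probe set of beta-actin exceeded its 5' probe set by 9.10 (log2), against 3.16 to 4.64 on the other 7, and that of GAPDH by 8.41 against 0.70 to 1.92. The second prone array and the third supine array carried heart muscle transcripts, with Myh6 (the atrial myosin heavy chain) at 9.87 and 8.87 against 2.69 to 2.79 elsewhere. The first prone and first supine arrays deviated from their groups together, with a correlation of deviations over probe sets of 0.72. With each gene, values are also given without some single arrays, these among them. Without the second prone array and the third supine array 0 of 12 members and 0 of all probe sets passed in each comparison. That setting gave, at p under 0.05 before adjustment, 1 member in prone against control (Id2, 1368870_at), 1 in supine against control and 1 in supine against prone (both Bmp2, 1368945_at), and 0 in ventilated against control, beside 15.5%, 8.63%, 2.65% and 15.3% of all probe sets. In the marker lists Bnc1, a transcription factor of mesothelium, was the 1 gene that passed the test. It read 6.88 and 6.60 in controls and 2.69 to 3.11 on the 6 ventilated arrays, so it reached the filter through the controls alone. Its passing is therefore given as a value and not as support for a lower level. Among other cell types' markers, the median difference of ventilated from control lungs was 2.59 for 6 neutrophil, -2.39 for 5 lymphocyte, -2.80 for 5 mesothelial, -0.73 for 5 alveolar type 1, -0.26 for 7 alveolar type 2, -0.14 for 3 airway, -0.24 for 6 fibroblast, 0.45 for 6 smooth muscle and pericyte and -0.23 for 5 macrophage and monocyte genes.

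Among the ligands, Bmp2 signals through BMP type I receptors with Bmpr2 and is made in endothelium and mesenchyme. Its brighter probe set (1398270_at) read 7.45 and 7.79 in the 2 controls, 7.96, 9.04 and 8.63 in prone lungs, and 7.72, 6.75 and 9.46 in supine lungs. All 3 prone values lay above both controls, whereas the supine values ran from the lowest to the highest of the 8 arrays. The prone mean exceeded the control mean by 0.93 ± 0.74 (model SE; adjusted p = 0.554, limma), and the supine mean by 0.36 ± 0.74. Without the third supine array the supine difference was -0.38, and with the replicate block the prone difference was 0.53. The dimmer probe set (1368945_at) read 4.75 and 5.05 in controls, 4.74, 5.90 and 5.26 in prone lungs and 3.11, 3.86 and 6.44 in supine lungs. It ranked the third supine array highest and the second prone array next, as the brighter probe set did, and its groups overlapped in both comparisons with control. Its differences were 0.40 ± 0.90 for prone and -0.43 ± 0.90 for supine lungs, so the 2 probe sets had opposite signs in supine lungs. Without the third supine array its supine difference was -1.42, and without the first it was 0.25. The arrays with the highest Bmp2 values were the 2 that carried heart muscle transcripts, whose part in the result was not tested.

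Bmp4, a BMP ligand that shapes the branching lung and is made by mesenchyme and endothelium, had the smallest spread of the member probe sets. Its probe set (1387232_at) read 12.49 and 12.33 in controls, 12.24, 11.05 and 12.25 in prone lungs, and 11.93, 12.33 and 12.05 in supine lungs. All 6 ventilated values lay below both controls, although the second supine array (12.3297) was nearly level with the second control (12.3319). The ventilated mean differed from control by -0.43 ± 0.38 on the log2 scale (adjusted p = 0.548, limma), with differences of -0.56 ± 0.42 in prone and -0.31 ± 0.42 in supine lungs. Without the second prone array, the lowest of the 8, the prone difference was -0.16. The pooled SD within groups was 0.46, against a median of 0.52 over all tested probe sets.

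Tgfb1, the TGF-beta ligand that leucocytes and epithelium secrete in a latent form, varied far more. Its probe set (1370082_at) read 7.26 and 6.97 in controls, 6.86, 5.37 and 5.58 in prone lungs and 8.01, 6.14 and 4.31 in supine lungs. The prone values were all below the controls, and the supine group held both the highest and the lowest value. Differences from control were -1.18 ± 0.98 in prone and -0.96 ± 0.98 in supine lungs (adjusted p = 0.572 and 0.642, limma). The supine difference was -0.04 without the third supine array and -1.89 without the first, so its size was set by which of these arrays entered. With the replicate block the differences were -0.63 in prone and -0.41 in supine lungs. The pooled SD was 1.28.

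Bmpr2 is the type II receptor of BMP2, BMP4 and other ligands, and is abundant in pulmonary endothelium. Its probe set (1376843_at) read 10.85 and 11.20 in controls, 9.16, 10.01 and 10.98 in prone lungs and 8.05, 10.95 and 9.41 in supine lungs. In each ventilated group 1 array, the third prone and the second supine, lay between the controls and the others lay below both. The supine mean differed from control by -1.55 ± 0.85 (2.93-fold; 95% interval of the log2 difference -3.53 to 0.42; adjusted p = 0.409, limma) and the prone mean by -0.97 ± 0.85 (adjusted p = 0.587). The supine difference was -0.84 without the first supine array and -2.29 without the second, and the prone difference was -0.53 without the first prone array. With the replicate block the supine difference was -1.77 (unadjusted p = 0.0413, adjusted p = 0.284, limma). The sign of the supine minus prone difference, -0.58 ± 0.76, also turned without the first supine array, to 0.13.

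Smad6, the inhibitory Smad that acts mainly on BMP receptors and Smad1, was read by 2 probe sets. The brighter (1394025_at) read 10.11 and 10.48 in controls, 9.52, 9.78 and 10.61 in prone lungs, and 9.13, 10.09 and 9.27 in supine lungs. All 3 supine values lay below both controls, the second by a narrow margin, and the prone group overlapped the controls through the third prone array. Differences from control were -0.80 ± 0.45 in supine (adjusted p = 0.415, limma) and -0.33 ± 0.45 in prone lungs. The prone difference was -0.10 without the first prone array and -0.65 without the third.

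The dimmer Smad6 probe set (1375121_at) read 5.02 and 6.22 in controls, 3.96, 3.70 and 5.50 in prone lungs and 3.19, 4.50 and 3.33 in supine lungs. Only 3 of these values, both controls and the third prone array, reached the log2 5 used as the filter. The probe set is thus close to the level at which probe sets were not tested. No supine value reached log2 5, so it entered the supine comparison through its control and prone values. Its p-values and separation there are given as values and not as support for a lower level. Its supine values were again all below the controls. The supine difference was -1.95 ± 0.68 (unadjusted p = 0.0226, adjusted p = 0.279, limma), the prone difference -1.23 ± 0.68 and the ventilated difference -1.59 ± 0.61 (unadjusted p = 0.0327, adjusted p = 0.224). The 2 controls differed by more than 1 log2 unit, and without the second control the prone difference was -0.63 and the ventilated difference -0.99 (unadjusted p = 0.258, limma). The 2 probe sets ordered the supine arrays alike, with the first lowest and the second highest.

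Smad7 blocks both TGF-beta and BMP receptors. Its probe set 1368896_at read 10.88 and 10.56 in controls, 10.32, 10.91 and 11.16 in prone lungs and 9.44, 10.78 and 10.22 in supine lungs. Both ventilated groups overlapped the controls, and the first supine array was the lowest. Differences were 0.07 ± 0.46 in prone and -0.57 ± 0.46 in supine lungs, with 95% intervals of -0.99 to 1.13 and -1.64 to 0.49. The supine difference was -0.22 without the first supine array and -0.89 without the second. The other Smad7 probe set (1368897_at) read 2.60 to 3.39 on 7 arrays and 5.15 on the third prone array, and it was not tested because only 1 array reached log2 5.

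**Figure D2:**
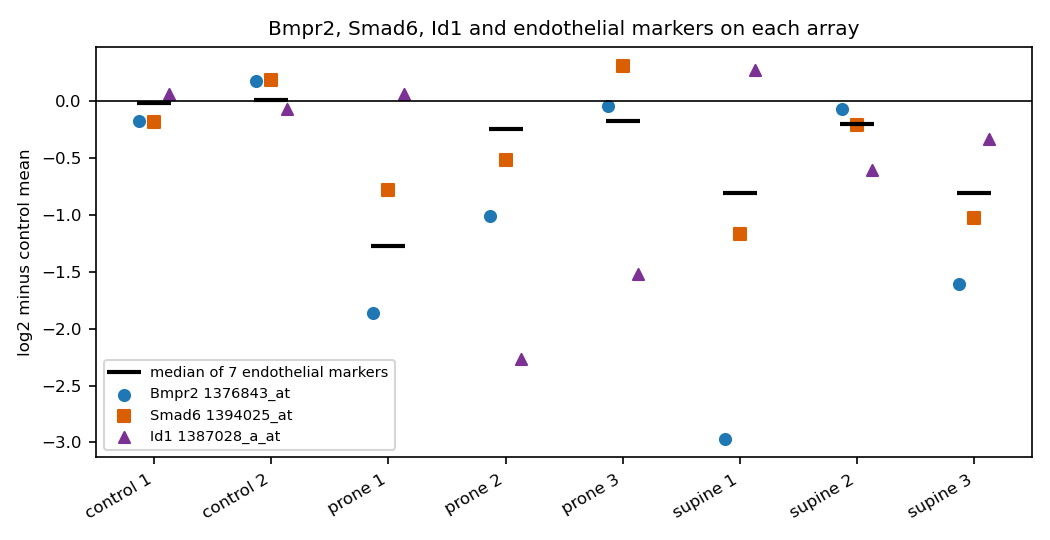
Log2 value minus the control mean (y axis) of Bmpr2, the brighter Smad6 probe set and Id1 on each of the 8 arrays (x axis), with the median of 7 endothelial markers as a black bar. The marker median is lowest on the first prone array (-1.28), where Id1 reads at its control level, and the first supine array holds the lowest Bmpr2 value.

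Markers of endothelium, a cell type in which Bmpr2, Smad6 and the Id genes are well known, moved across arrays beside these 2 genes. Of 8 listed markers 7 were tested (Pecam1, Kdr, Tek, Tie1, Vwf, Cldn5 and Emcn), and Cdh5 was not analysed here. In the ventilated lungs 7 of 7 were below control, 0 passed the test, and their median difference was -0.51. The median per array relative to control was -1.28, -0.25 and -0.18 in prone and -0.81, -0.20 and -0.80 in supine lungs 1 to 3. Their summed signal was 15.68 and 15.74 (log2) in controls, 14.68 to 15.63 in prone and 14.94 to 15.55 in supine lungs, and none of the 7 was near 0 on any array. The 3 arrays with the lowest marker medians, the first prone and the first supine and the third supine, were also the 3 lowest for Bmpr2 and for the brighter Smad6 probe set. Id1 did not share this order, being highest on the first supine and level with control on the first prone array. Among the ventilated arrays, the 3 lowest for the endothelial markers were also the 3 lowest by the median of 6 fibroblast markers. Fibroblast medians were -1.03, 0.85 and -0.05 in prone and -1.33, 0.15 and -0.16 in supine lungs 1 to 3. This order was thus not particular to endothelium. Medians of 6 neutrophil markers were 4.79, 1.78 and 2.68 in prone and 3.75, 3.04 and 1.38 in supine lungs 1 to 3. The part of these cell types' shares in the Bmpr2, Smad6 and Id1 values was not tested.

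The Id proteins carry a helix-loop-helix without a DNA-binding region, and they bind E proteins and so keep them from DNA. Promoter stretches of Id1, Id2 and the feedback inhibitor Smad7 are shown as examples of members known as Smad target genes. RefSeq (assembly GRCr8) windows of 300 bases, from 250 before to 50 after a gene's start, were in the table used for 7 of the 10 members; Smad6, Bmp2 and Tgfbr2 were not among them. Each stretch runs 5' to 3' on the gene's strand and ends at the base before the gene's most upstream RefSeq start, and capitals mark GTCT or its reverse complement AGAC, the core Smad-binding letters, and GGCGCC, a GC-rich Smad-binding motif of BMP-responsive elements.
Id1 (chr3:161671314-161671524, plus strand): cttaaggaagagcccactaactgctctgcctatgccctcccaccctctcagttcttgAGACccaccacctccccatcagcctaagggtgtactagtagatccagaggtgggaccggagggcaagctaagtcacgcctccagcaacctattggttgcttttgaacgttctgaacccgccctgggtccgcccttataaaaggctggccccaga
Id2 (chr6:47470996-47471245, minus strand): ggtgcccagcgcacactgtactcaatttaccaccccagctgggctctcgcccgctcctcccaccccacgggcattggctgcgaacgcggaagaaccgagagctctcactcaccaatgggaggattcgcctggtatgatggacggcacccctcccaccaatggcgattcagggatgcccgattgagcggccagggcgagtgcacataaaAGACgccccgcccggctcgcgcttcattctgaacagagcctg
Smad7 (chr18:71263258-71263507, plus strand): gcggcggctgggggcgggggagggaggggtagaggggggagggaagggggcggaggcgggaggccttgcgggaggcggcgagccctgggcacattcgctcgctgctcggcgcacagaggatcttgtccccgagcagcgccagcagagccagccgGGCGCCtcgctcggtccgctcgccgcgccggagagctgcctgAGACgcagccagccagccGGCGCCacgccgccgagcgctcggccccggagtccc

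Over the whole windows, searched on both strands, GTCT occurred 2 times for Id1, 1 time for Id2, 0 times for Id3, 1 time for Smad7, 3 times for Bmp4, 0 times for Bmpr2 and 2 times for Tgfb1. It is a common word, present in 88.8% of all 33469 promoter windows of the table. GGCGCC occurred 2 times in the Smad7 window and in none of the other 6, against 11.0% of all windows. The palindrome GTCTAGAC, which overlaps GTCT, was in none of the 7 and in 0.197% of all windows. A match describes letters in these windows and was not set against binding. Sites farther upstream were not searched, so a count of 0 covers the window alone. The Bmp4 and Bmpr2 windows lay inside the annotated genes, downstream of their most upstream starts, so the sequence before those starts was not searched.

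Id1, which marks BMP signalling in endothelium, had the largest difference of means between the 2 positions among the members, although it did not pass the test. Its probe set (1387028_a_at) read 12.58 and 12.45 in controls, 12.58, 10.25 and 11.00 in prone lungs, and 12.78, 11.91 and 12.18 in supine lungs. The second prone array and the third one were the lowest of the 8, and the first prone array was level with the higher control, so the groups overlapped. The prone mean differed from control by -1.24 ± 0.65 (2.36-fold; unadjusted p = 0.0948, adjusted p = 0.369, limma), and the supine difference was -0.22 ± 0.65. Supine exceeded prone by 1.02 ± 0.58, with a 95% interval of -0.34 to 2.37 (adjusted p = 0.942), so a difference between positions was not shown. Without the second prone array the prone difference was -0.72. With the first prone and first supine arrays left out it was -1.89 with an adjusted p of 0.049 (limma), the 1 member call of that setting, in which 4.31% of all probe sets passed.

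Id2, which is expressed in epithelial, lymphoid and other lung cells, had the lowest values relative to control by its probe set 1368870_at. This probe set read 11.15 and 10.87 in controls, 9.84, 8.57 and 7.45 in prone lungs and 10.36, 9.98 and 6.12 in supine lungs. All 6 ventilated values lay below both controls, and the ventilated arrays spread over more than 4 log2 units. Means differed from control by -2.38 ± 1.27 in prone (5.22-fold; adjusted p = 0.375, limma), -2.19 ± 1.27 in supine (adjusted p = 0.428) and -2.29 ± 1.13 in all ventilated lungs (unadjusted p = 0.0807, adjusted p = 0.315). With the replicate block these differences were -1.42, -1.22 and -1.32 (adjusted p = 0.295, 0.365 and 0.269, limma). Its pooled SD within groups, 1.67, was the largest of the members and at or above that of 96.9% of all tested probe sets. Without the third supine array the supine difference was -0.83.

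The other Id2 probe set (1375532_at) read 10.72 and 10.91 in controls, 10.26, 9.45 and 8.85 in prone lungs and 10.60, 10.84 and 9.73 in supine lungs. The prone values were all below the controls and ranked the 3 prone arrays as the first probe set did, and the second supine array lay between the controls. The prone difference was -1.29 ± 0.50 (95% interval -2.46 to -0.13; unadjusted p = 0.0338, adjusted p = 0.240, limma) and the supine difference -0.42 ± 0.50. Its ventilated difference, -0.86 ± 0.45, was smaller in size than those of Smad6 by 1375121_at (-1.59), Bmpr2 (-1.26) and Tgfb1 (-1.07). The low rank of Id2 among the members thus depended on the probe set. The supine difference was -0.095 without the third supine array, -0.65 without the second and -0.091 with the replicate block. Both probe sets read Id2 lower on the third supine array than on the other supine arrays, at -4.89 and -1.08 relative to the control mean. That array also had the 3' excess described above, as the plot of Id2, Id3 and the control genes shows, and its part in the result was not tested. The 5 lymphocyte markers tested had median differences of -3.59 in prone and -1.71 in supine lungs, and their part in the Id2 values was not tested.

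**Figure D3:**
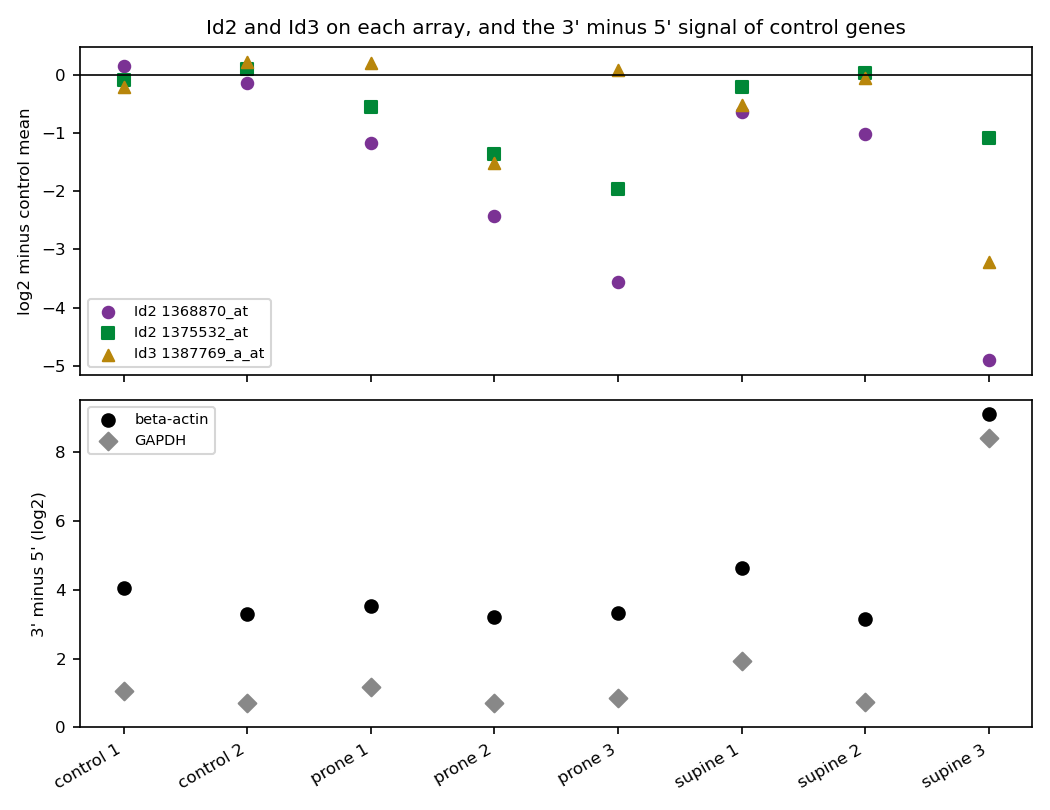
Upper panel: log2 value minus the control mean (y axis) of the Id2 and Id3 probe sets on each of the 8 arrays (x axis); lower panel: 3' minus 5' log2 signal of the beta-actin and GAPDH control probe sets on the same arrays. The third supine array has the lowest Id2 (1368870_at) and Id3 values and a 3' excess of 9.10 for beta-actin and 8.41 for GAPDH.

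Id3, a BMP target that often accompanies Id1, depended on 2 arrays. Its probe set (1387769_a_at) read 11.46 and 11.90 in controls, 11.87, 10.16 and 11.76 in prone lungs, and 11.15, 11.62 and 8.47 in supine lungs. The second prone array and the third supine array were low and the other 4 ventilated arrays lay at 11.15 or above. Differences from control were -0.42 ± 0.96 in prone and -1.26 ± 0.96 in supine lungs (adjusted p = 0.854 and 0.529, limma). Without the second prone array the prone difference was 0.13, and without the third supine array the supine difference was -0.29. With the replicate block the prone difference was -0.055. These are the 2 arrays with heart muscle transcripts, whose part in the Id3 values was not tested.

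Across members, more differences lay below 0 than above. The difference was below 0 for 9 of 12 member probe sets in prone, 11 in supine and 11 in ventilated against control, where 56.5%, 53.8% and 56.0% of all tested probe sets were below 0. In supine against prone it was below 0 for 7 of 12, against 47.1%. Median differences of the members were -0.77, -0.69, -0.79 and -0.52 for prone, supine and ventilated against control and supine against prone, beside -0.12, -0.07, -0.10 and 0.03 for all tested probe sets. The 12 probe sets include several of 1 gene, and no test was made over them.

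Counting probe sets whose groups did not overlap gave 4 of 12 lower in prone lungs (both of Id2, Bmp4 and Tgfb1), where 27.7% of all probe sets did so, and 1 higher (Bmp2, 1398270_at), where 20.9% did. In supine lungs 4 were lower (Id2 by 1368870_at, both of Smad6, and Bmp4), against 21.8%, and 0 higher, against 20.0%. Of these, Smad6 by 1375121_at had no supine value at the filter level. For all 6 ventilated arrays 2 were lower (Id2 by 1368870_at and Bmp4), against 16.7%, and 0 higher, against 12.9%. Supine and prone separated for 0 of 12 members, where 5.89% of all probe sets did.

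**Figure D4:**
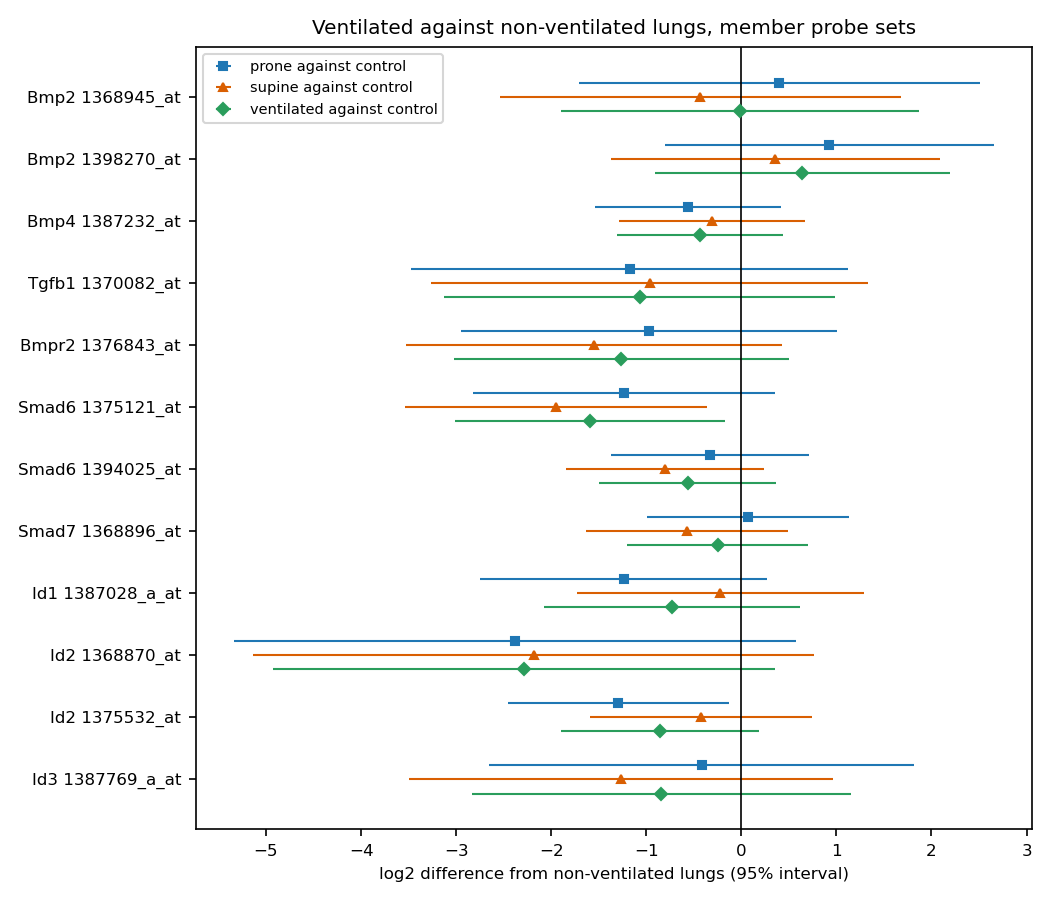
Log2 difference from non-ventilated lungs (x axis) for the 12 tested member probe sets, with 95% intervals from the limma model, for prone (squares), supine (triangles) and all ventilated lungs (diamonds). The intervals leave out 0 for Id2 (1375532_at) in prone lungs and for Smad6 (1375121_at) in supine and all ventilated lungs, before any adjustment over probe sets. That Smad6 probe set reached the filter level on both controls and the third prone array alone.

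In supine against prone lungs, the comparison of body positions, the 12 adjusted p-values lay between 0.942 and 0.989 (limma). The differences ran from -0.85 for Id3 to 1.02 for Id1. After Id1, Id2 by 1375532_at was the member with the next highest supine excess, 0.87 ± 0.45 with a 95% interval of -0.17 to 1.91. With the replicate block that difference had an unadjusted p of 0.0315 and an adjusted p of 0.670 (limma). Between arrays of the same number, supine minus prone was 0.33, 1.39 and 0.89 for this probe set, 0.20, 1.66 and 1.19 for Id1, and -0.88, -0.13 and -0.94 for Smad7. These were the 3 of 12 member probe sets with 1 sign in all 3 pairs, as had 32.0% of all tested probe sets. The intervals do not show that the positions gave alike levels. For Id2 by 1368870_at, for example, the interval was -2.44 to 2.84.

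Weighting arrays by how closely they followed the fit changed the counts of calls. With array weights 5 of 12 members passed in prone against control, Id1 (-1.79), Id2 (-2.73 and -1.51), Bmp2 by 1398270_at (1.18) and Tgfb1 (-1.54), and 3 of 12 in ventilated against control (Id1 and both of Id2). In that setting 33.9% and 27.8% of all tested probe sets passed. It gave each of the 2 controls a weight of 4.67, against 0.28 to 1.81 for the ventilated arrays.

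The rest of the pathway was followed in 86 listed gene symbols, of which 67 were tested, each by its brightest probe set. None of the 67 passed an adjusted p of 0.05 in any comparison (limma). In ventilated against control lungs 28 were above and 39 below control, with 7 higher and 3 lower at an unadjusted p under 0.05 and a median difference of -0.12. The 10 at that level are 14.9% of the 67, where 19.2% of all tested probe sets reached it, and the 39 below control are 58.2%, where 56.0% of all were. At that level 6 were higher and 4 lower in prone, 6 and 2 in supine against control, and 2 higher and 1 lower in supine against prone. The values below are therefore given as sizes and not as calls, for the genes with the highest and lowest difference of each role at an unadjusted p under 0.05.

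Of 9 other ligands, 5 were above and 4 below control. Inhba, the activin A subunit, read 5.25 and 5.94 in controls, 8.45, 8.72 and 6.15 in prone lungs and 7.88, 7.70 and 7.07 in supine lungs, a difference of 2.07 ± 0.68 (adjusted p = 0.176, limma). Inhbb, the activin B subunit, read 10.87 and 10.90 in controls, 10.10, 9.27 and 8.66 in prone lungs, and 9.74, 10.14 and 10.16 in supine lungs, a difference of -1.21 ± 0.39 (adjusted p = 0.173). The 2 activin subunits were picked as the highest and lowest ligands of this comparison, so their opposite signs follow from that choice. On all 6 ventilated arrays Inhba lay above and Inhbb below both controls, as 12.9% and 16.7% of all tested probe sets did. The 2 other ligands at an unadjusted p under 0.05, named after their values were seen, were Gdf15, a stress-induced member of the family, at 2.02 ± 0.65 and Bmp1, a protease despite its name, at 0.93 ± 0.30.

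Of 9 other receptors and co-receptors 2 were above and 7 below control, with a median of -0.30. Acvr2b, a type II activin receptor, read 6.10 and 5.55 in controls, 4.01, 4.25 and 4.27 in prone lungs and 3.24, 5.18 and 4.05 in supine lungs, a difference of -1.66 ± 0.48 (adjusted p = 0.148, limma). All 6 ventilated values were below the controls, and 5 of them were under the log2 5 of the filter. Acvr1, a BMP and activin type I receptor, was higher by 0.92 ± 0.34 by its brightest probe set (1379217_at), while its other 2 tested probe sets gave -0.54 ± 0.58 and -0.71 ± 0.90, so its direction depended on the probe set.

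Of the 6 receptor-regulated and common Smads 4 were above and 2 below control. Smad9, which BMP receptors phosphorylate, read 10.32 and 10.12 in controls, 8.51, 9.04 and 9.92 in prone lungs, and 8.12, 9.35 and 7.60 in supine lungs, a difference of -1.47 ± 0.53 (adjusted p = 0.207, limma). Its lowest arrays were the first prone, the first supine and the third supine, the arrays that were also lowest for Smad6 by 1394025_at. Smad1, the other BMP-regulated Smad named by the rule, was higher by 0.93 ± 0.31 (adjusted p = 0.182), and its second probe set differed by 0.91 ± 0.59.

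The 15 secreted antagonists and latency proteins had 9 above and 6 below control, with Lrrc32, the cell-surface carrier of latent TGF-beta, at 1.61 ± 0.68. The 9 intracellular inhibitors had 2 above and 7 below (median -0.14), and the 4 activators of latent TGF-beta 2 and 2, with 0 of either list at an unadjusted p under 0.05. Of the 11 tested pathway targets 3 were above and 8 below control (median -0.18). Cdkn1a, the cell cycle inhibitor p21, read 9.60 in both controls and 10.22 to 12.01 in the ventilated lungs, a difference of 1.62 ± 0.53 (adjusted p = 0.178, limma), and its second probe set differed by 1.08 ± 0.54. The 4 tested partners of the Id proteins, the E proteins and related factors, had 1 above and 3 below, with 0 at an unadjusted p under 0.05.

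**Figure D5:**
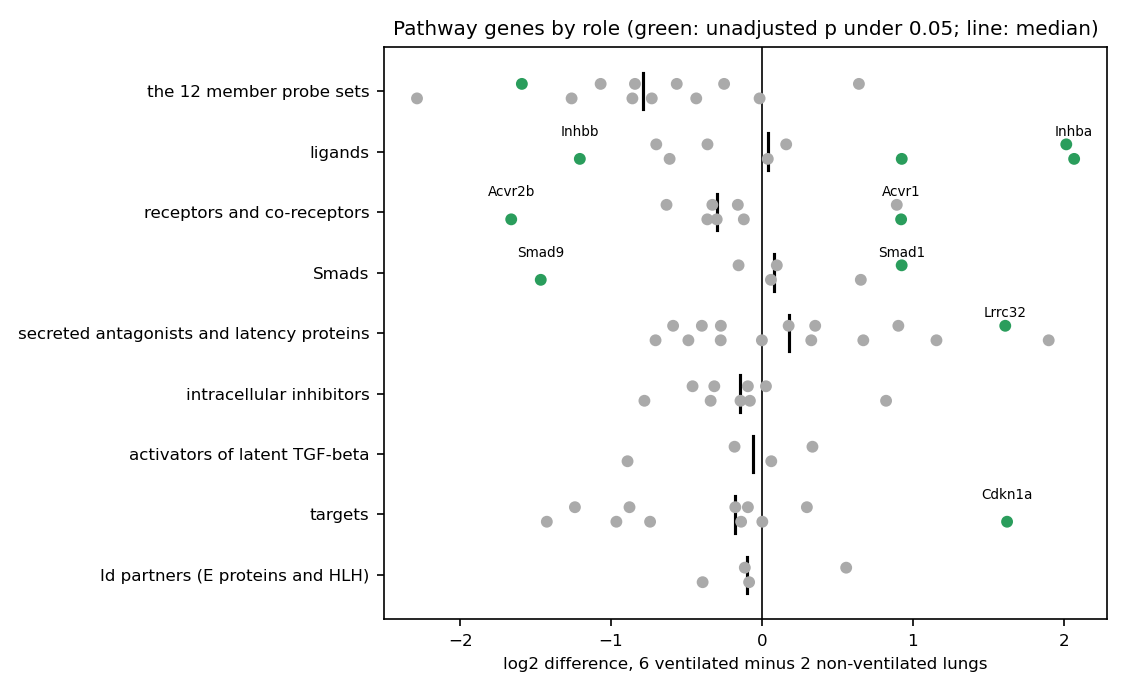
Log2 difference of the 6 ventilated from the 2 non-ventilated lungs (x axis) for the 12 member probe sets and for the other pathway genes grouped by role (y axis); each point is 1 probe set, green points have an unadjusted p under 0.05, and lines are medians. The member median is -0.79, and the lists' medians lie between -0.30 and 0.18.

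Profiles across the 8 arrays, each centred on its own mean, were compared by their root mean square difference for Id1, Smad6 and Bmp2. The receptor chosen, Tgfbr2, had no probe set, so no receptor was compared. The 3 genes nearest to Id1 were Tmem115 (0.19), Nsun4 (0.20) and Chmp6 (0.20), where the Id1 profile itself had a root mean square of 0.84. Nearest to Smad6 (1394025_at; own value 0.51) were Ak3 (0.13), Pcmtd2 (0.14) and Abca1 (0.14). Bmp2 (1398270_at; own value 0.83) had no neighbour as close, with H3c1 at 0.29, Kif26b at 0.32 and Trib3 at 0.33.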

How the data were processed

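RNA from 8 lungs was labelled from 300 ng of total RNA and hybridised to 1-colour Affymetrix rat arrays. The deposited values are log2 GCRMA summaries per probe set, and Partek 6.5 was used, per the submitters' processing notes; GCRMA corrects background, normalizes arrays to common quantiles and summarises probes, and can compress low values. The number of arrays limits the precision. The titles of supine samples read SVt, and the condition label, high tidal volume for both positions, was followed.

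The 28 Affymetrix control probe sets served for RNA quality alone. Of 20214 others, 16896 reached log2 5 on at least 2 arrays and were tested with limma 3.58.1 (R 4.3.3), with 1 mean per group over all 8 arrays, 5 residual and 2.51 prior degrees of freedom, two-sided, and Benjamini-Hochberg adjustment within each comparison. Errors after ± are model standard errors unless SD is stated. No detection calls were used.

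The members and lists were chosen with earlier results of these data known. The text names all members, and from each pathway list any gene that passed the test and the highest and lowest in ventilated against control lungs at an unadjusted p under 0.05. Profile neighbours were the 3 named genes nearest to Id1, Smad6 and Bmp2.

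Replicate numbers were checked for pairing: the deviations of same-numbered arrays correlated at 0.11 to 0.72 in all 7 pairs, which counts as pairing under the rule used. Arrays of different numbers were not correlated for comparison, and deviations within a group sum to 0, so the check cannot show pairing. No source used here gives a pairing, and the printed differences, errors and intervals come from the fit without a block; values with the replicate number as a block are named as such where they moved a result. Alternatives were other filters, scalings, an intensity trend, array weights, the block, the compared groups alone and each array left out. Leaving out the first prone and supine arrays, or the second prone array and the third supine array, was chosen after seeing the data.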

Additional observations from a re-analysis of the deposited data

How the results depend on the processing

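Across the 18 alternatives, 844 values for the 48 member differences kept direction and call in 804 cases, turned sign in 31 and newly passed in 9. The filter at log2 7 left Smad6 by 1375121_at and Bmp2 by 1368945_at untested, and the compared groups alone give no separate value for ventilated against control. With the replicate block, the differences that turned were Smad7 (-0.036) and Bmp2 by 1368945_at (-0.082) in prone and Bmp2 by 1398270_at (-0.034) in supine against control. Bmp2 by 1368945_at in ventilated against control became 0.094 with median centring, 0.044 with repeated quantile normalization and 0.091 with array weights. Without the first prone and supine arrays, Bmp2 by 1368945_at was 0.25 in supine and 0.46 in ventilated against control, Smad7 0.045 in ventilated against control and Tgfb1 -0.25 in supine against prone. Without the second prone array and the third supine array, Id3 was 0.13 in prone and Bmp2 by 1398270_at -0.38 in supine against control, and Bmp4 -0.12 in supine against prone. The cause of these turns was not tested.

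With each array left out in turn, some differences spanned 0. In prone against control Id3 ran from -0.72 to 0.13 and Smad7 from -0.11 to 0.31. In supine against control Bmp2 ran from -1.42 to 0.25 (1368945_at) and -0.38 to 0.97 (1398270_at), and in ventilated against control from -0.51 to 0.32 (1368945_at). In supine against prone Id2 by 1368870_at ran from -0.57 to 1.55, Id3 from -1.45 to 0.13, Bmp2 by 1398270_at from -1.31 to 0.044, Bmp4 from -0.14 to 0.46, Bmpr2 from -1.32 to 0.13 and Tgfb1 from -0.72 to 1.14.

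Counts of all probe sets passing moved widely. Prone against control gave 9, and 0 with a filter at log2 7, 35 with none, 0 with an intensity trend, 119 with the compared groups alone, 5724 with array weights, 0 with the replicate block and 728 or 0 without the first or the second pair of added arrays; single arrays left out gave 0 to 115. Supine against control gave 9, and in the same order 0, 18, 0, 0, 36, 0, 0 and 0, and 0 to 153. Ventilated against control gave 24, and 5, 118, 11, 4704 with weights, 0 with the block, 413 and 0, and 0 to 381. Supine against prone gave 0, and 0 to 3 with single arrays left out. Member calls moved to 5 (prone) and 3 (ventilated) with array weights and to 1 (prone) without the first prone and supine arrays. The filter bears on Smad6 by 1375121_at and Bmp2 by 1368945_at, whose values lie near it, and 2 controls limit every comparison with non-ventilated lung.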
